A study of Mus musculus with 16 samples.

Results

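The NF-κB factors and inhibitors described here are 9 genes, Nfkb1, Nfkb2, Rela, Relb, Nfkbia, Nfkbib, Nfkbiz, Tnfaip3 and Ikbkb. They were chosen by gene symbol, and all 9 were found among the 24060 genes of every library. The mice were C57BL/6J animals of 3 months with the genotype Aldh1l1CreERT2-RiboTag. All of them, controls included, had received tamoxifen i.p. at 2 months, so that Cre recombinase driven by the Aldh1l1 promoter switched on an HA-tagged ribosomal protein in astrocytes. Stressed mice swam for 20 min and then rested in the home cage for 90 min, and naive mice did not swim. The paper's methods state that animals were housed singly before an experiment. From the somatosensory cortex, RNA bound to the tagged ribosomes was immunoprecipitated (IP, the astrocyte fraction), and the cleared lysate before precipitation was kept as INPUT (all cell types). There were 4 libraries in each of the 4 groups, naive IP, stress IP, naive INPUT and stress INPUT, and 16 in all. The labels give neither the sex of a mouse nor which IP and INPUT libraries came from the same mouse. The paper's methods give 4 males and 4 females. Xist, the X-inactivation RNA of females, was above 1 CPM in 2 of the 4 libraries of each group.

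NF-κB is a family of transcription factors that act as pairs of subunits. Rela and Relb encode subunits that activate transcription, and Nfkb1 and Nfkb2 encode the precursors p105 and p100, which are processed to the DNA-binding subunits p50 and p52. In resting cells the dimers are held in the cytoplasm by inhibitors such as IκBα (Nfkbia) and IκBβ (Nfkbib). The kinase IKKβ (Ikbkb) marks the inhibitors for degradation, and the freed dimers then induce new IκBα and the ubiquitin-editing enzyme A20 (Tnfaip3), which close the loop. IκBζ (Nfkbiz) is an inducible nuclear member of the inhibitor family. Nfkbia is also a textbook glucocorticoid-induced gene, and in astrocytes the pathway is known for driving cytokine, chemokine and adhesion molecule genes during inflammation.

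Depth ranged from 16392876 to 25814364 counted reads per library, so that 3 reads were at most 0.183 CPM (reads per 1000000 counted reads), and the precision stated below covers 4 libraries per group. The 9 genes had between 19 and 1883 reads in each library. The IP fraction held the cells its label names. The summed level of 10 astrocyte markers was between 92105 and 103921 CPM in IP and between 5619 and 6513 CPM in INPUT. The sums of 8 neuron markers were between 370 and 586 CPM in IP and between 10295 and 12014 CPM in INPUT. For 8 microglia markers, cells in which NF-κB genes are also well known, the sums were between 20.5 and 33.8 CPM in IP and between 258 and 299 CPM in INPUT. No marker was at 0 in all libraries of a group. In such bulk RNA, a change in the number of cells and a change in RNA per cell cannot be told apart.

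Nfkbia stood above the other members in level. Per kilobase of RefSeq exon, it was at 22.8 ± 8.61 CPM per kb (SD, n = 4) in naive IP and at 48.3 ± 4.81 CPM per kb (SD, n = 4) in stress IP. Rela followed at 13.9 ± 0.725 CPM per kb (SD, n = 4) in naive IP, and Ikbkb at 6.89 ± 0.418 CPM per kb (SD, n = 4). Below them came Nfkbib, Nfkb1 and Nfkb2 at 5.47, 4.70 and 3.27 CPM per kb. The lowest levels in naive IP were those of Relb, Nfkbiz and Tnfaip3 at 1.52, 1.17 and 0.536 CPM per kb. Of the neighbours in this order, the libraries overlapped between Relb and Nfkbiz, and in stress IP also between Nfkbib and Nfkb1. In naive INPUT, Nfkbia at 10.9 ± 2.81 CPM per kb (SD, n = 4) overlapped with Nfkbib at 9.66 ± 0.766 CPM per kb (SD, n = 4), and Nfkb2 was last at 0.539 ± 0.176 CPM per kb (SD, n = 4). In stress INPUT, the Nfkbia libraries lay above those of every other member, with a mean of 17.2 ± 1.35 CPM per kb (SD, n = 4).

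**Figure D1:**
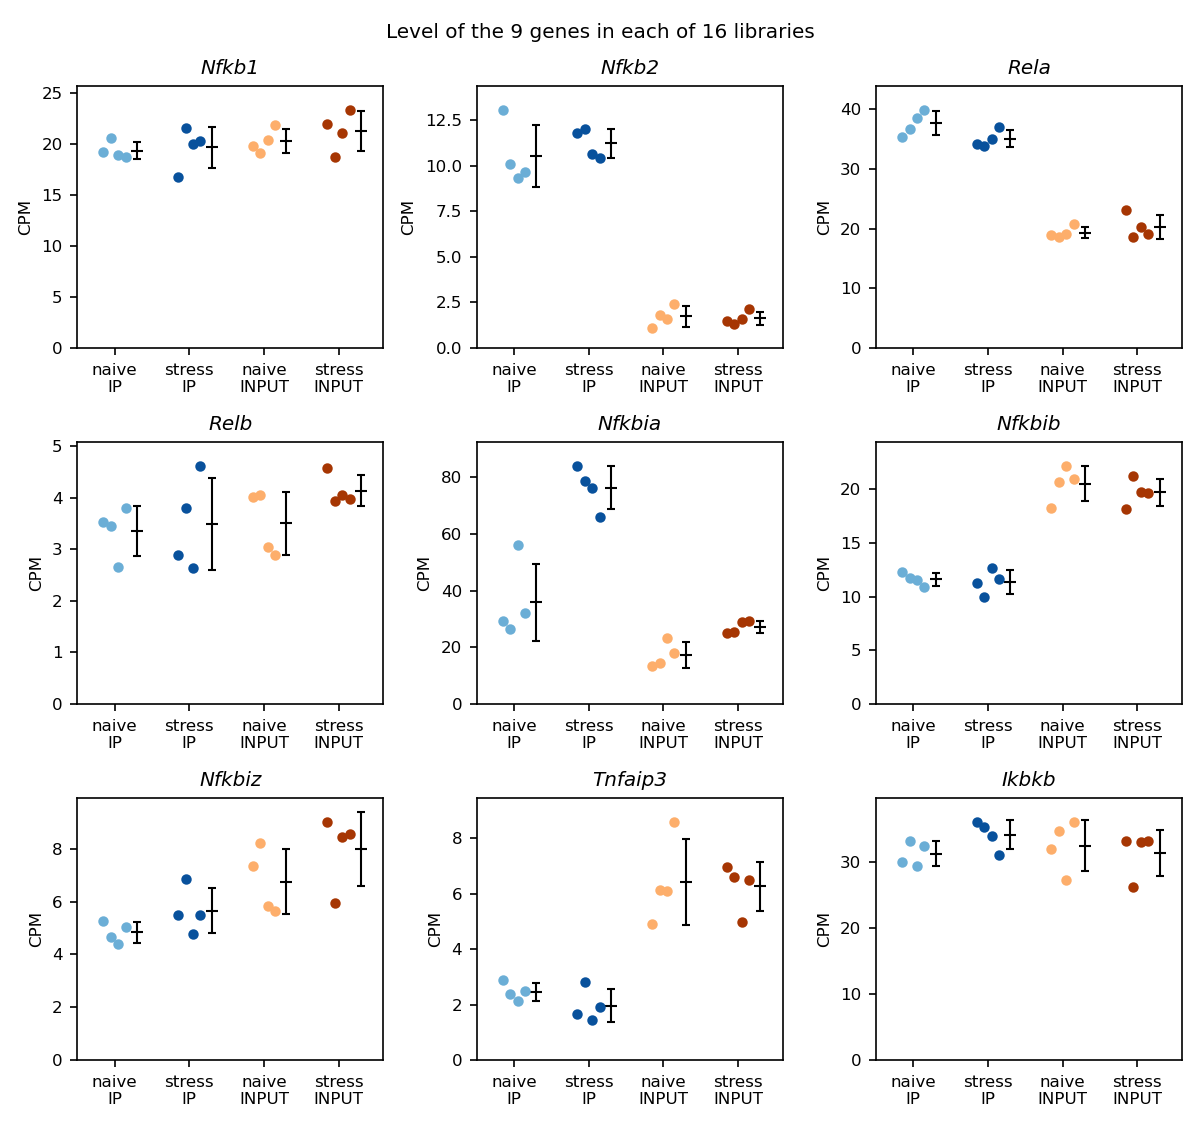
Level of each of the 9 genes (CPM, linear axis from 0) in the 4 groups of 4 libraries; each point is a library, and the bar beside the points is the mean ± SD. The stress IP libraries of Nfkbia sit between 65.9 and 84.0 CPM, all above the naive IP libraries, and no other gene separates stress from naive in either fraction.

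The first question was how the 9 genes answered acute stress in astrocytes. Nfkbia rose and no other member was called. In naive IP, Nfkbia was at 29.3, 26.4, 56.0 and 32.0 CPM in replicates 2, 8, 11 and 13. In stress IP, it was at 84.0, 78.8, 76.0 and 65.9 CPM in replicates 4, 5, 6 and 15. Naive replicate 11 was nearly as high as the lowest stressed library, yet the groups did not overlap. The increase was 1.14 ± 0.19 (SE) on the log2 scale, with a 95% interval of 0.73 to 1.55 on that scale (limma, adjusted p = 0.0248 over 12501 genes). This is a 2.21-fold rise, with an interval of 1.66-fold to 2.94-fold. An exact permutation test over the 8 libraries gave a two-sided p of 0.0286, the smallest that 4 against 4 allows. Of all genes tested in IP, 0.440% were called, and 1 of the 9 members. When 1 library was left out, the share of all genes called ranged from 0.136% to 0.976%. All stress values lay above all naive values for 2.38% of genes, and for 1 member. The summed level of 8 endothelial markers also differed, between 14.4 and 23.1 CPM in naive IP and between 10.9 and 13.7 CPM in stress IP, and none of the 8 was lower in every stressed library than in every naive one. Their part in the Nfkbia value was not tested. The call on Nfkbia needed most of the libraries. It was lost, with the same direction, when any 1 of naive replicates 2, 8 and 13 or stress replicates 4, 5 and 6 was left out, with adjusted p between 0.0881 and 0.127. Without naive replicate 11 the increase was 1.38 (adjusted p = 3.57e-05, limma), and without stress replicate 15 it was 1.21 (adjusted p = 0.0137, limma).

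The start of Nfkbia lies on chromosome 12 (mm10, minus strand, gene at chr12:55489410-55492647). Promoter windows from RefSeq (build GRCm38.p6), 250 bases before to 50 after a start site, were held for 5 of the 9 genes, in 8 windows. They were searched on both strands for the 10-letter κB consensus motif and for the 6-letter motif AGAACA. These 6 letters are a part of the glucocorticoid receptor element and not the whole of it. The κB motif was in 4.51% of 32851 promoter windows of the same length, and AGAACA in 19.0%. Nfkbia had 1 κB match, starting 29 bases before the start site, and no AGAACA. Tnfaip3 had 2 κB matches in 1 of its windows, and in its other window, which held no κB match, the only AGAACA of the 8 windows, starting 11 bases before the start site. Nfkb2 had 3 κB matches, of which the first pair overlap, in the window shown. The windows of Nfkbib and Rela held neither motif. A match is a description of letters and not a bound site. The windows of Nfkbia, which rose, and of Tnfaip3 and Nfkb2, which hold the same motif and were not called, are shown 5′ to 3′ on the gene's strand with the κB matches in capitals. The Nfkbia window is chr12:55492598-55492897 (minus strand), that of Tnfaip3 is chr10:19015361-19015660 (minus strand) and that of Nfkb2 is chr19:46304487-46304786 (plus strand).
Nfkbia: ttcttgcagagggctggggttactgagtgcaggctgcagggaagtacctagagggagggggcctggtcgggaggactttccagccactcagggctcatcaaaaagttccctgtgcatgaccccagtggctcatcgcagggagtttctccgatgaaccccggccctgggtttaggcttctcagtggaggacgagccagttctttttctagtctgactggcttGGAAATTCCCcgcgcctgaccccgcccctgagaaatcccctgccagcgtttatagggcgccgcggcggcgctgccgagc
Tnfaip3: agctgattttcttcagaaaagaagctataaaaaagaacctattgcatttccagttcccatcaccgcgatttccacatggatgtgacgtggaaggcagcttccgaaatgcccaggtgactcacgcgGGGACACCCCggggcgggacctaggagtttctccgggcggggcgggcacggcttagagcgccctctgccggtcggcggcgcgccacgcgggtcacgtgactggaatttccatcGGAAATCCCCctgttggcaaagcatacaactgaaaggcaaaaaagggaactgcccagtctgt
Nfkb2: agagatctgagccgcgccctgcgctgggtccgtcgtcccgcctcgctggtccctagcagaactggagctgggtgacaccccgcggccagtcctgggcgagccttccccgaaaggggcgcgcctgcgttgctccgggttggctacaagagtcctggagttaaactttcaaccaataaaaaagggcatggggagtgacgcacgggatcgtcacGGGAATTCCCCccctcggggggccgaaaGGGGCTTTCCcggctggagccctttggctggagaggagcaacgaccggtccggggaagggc

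The 4 subunit genes showed no called change in IP. Rela, the main activating subunit, was at 35.4, 36.7, 38.5 and 39.9 CPM in naive IP and at 34.2, 33.8, 35.0 and 37.0 CPM in stress IP, with the groups overlapping. Its difference was -0.10 ± 0.07 (SE) on the log2 scale (95% interval -0.25 to 0.04). Nfkb1 differed by 0.02 (95% interval -0.18 to 0.22), Nfkb2 by 0.10 (95% interval -0.16 to 0.36) and Relb by 0.03 (95% interval -0.40 to 0.46), all on the log2 scale. The intervals of Rela and Nfkb1 thus leave room for a change of about 0.25 at most, and that of Relb for more.

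Of the other members, Nfkbib was at 12.3, 11.7, 11.6 and 10.9 CPM in naive IP and at 11.2, 9.96, 12.6 and 11.7 CPM in stress IP. Its log2 difference was -0.03 (95% interval -0.25 to 0.18). Nfkbiz was at 5.29, 4.66, 4.39 and 5.04 CPM in naive IP and at 5.49, 6.85, 4.79 and 5.50 CPM in stress IP, a log2 difference of 0.21 (95% interval -0.09 to 0.51). Tnfaip3, which like Nfkbia is a feedback target of the pathway, was at 2.89, 2.37, 2.11 and 2.48 CPM in naive IP and at 1.65, 2.81, 1.46 and 1.93 CPM in stress IP. Its log2 difference was -0.35 ± 0.22 (SE), with a 95% interval of -0.82 to 0.13 and 32 to 64 reads in each of these libraries. The kinase gene Ikbkb was at 30.0, 33.2, 29.3 and 32.5 CPM in naive IP and at 36.1, 35.3, 34.0 and 31.1 CPM in stress IP, a log2 difference of 0.13 (95% interval -0.04 to 0.29). For these 8 members the adjusted p was at least 0.699 (limma), and the stress and naive libraries overlapped for each.

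In INPUT, no member was called, beside 0.0442% of 13577 genes. At an unadjusted p under 0.05 there was 1 member, Nfkbia, beside 5.03% of all genes, and limma-voom on the recovered reads also called 0. Nfkbia was at 13.4, 14.5, 23.2 and 18.0 CPM in replicates 3, 7, 14 and 16 of naive INPUT. In stress INPUT it was at 25.1, 25.5, 28.8 and 29.1 CPM in replicates 1, 9, 10 and 12. Every stressed library was above every naive one, as for 1.43% of all genes, with naive replicate 14 closest. The difference was 0.68 ± 0.14 (SE) on the log2 scale (95% interval 0.37 to 0.98), with an adjusted p of 0.165 (limma) and an exact permutation p of 0.0286. Without naive replicate 14 it was 0.83 and passed the threshold (adjusted p = 0.00738, limma), in a fit that called 32 of 13585 genes. The other 8 members differed by -0.06 to 0.25 on the log2 scale, each with overlapping groups and an adjusted p of at least 0.994 (limma). Relb, at 4.01, 4.06, 3.04 and 2.90 CPM in naive INPUT and at 4.58, 3.93, 4.06 and 3.97 CPM in stress INPUT, had the largest of these, with a 95% interval of -0.10 to 0.59.

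**Figure D2:**
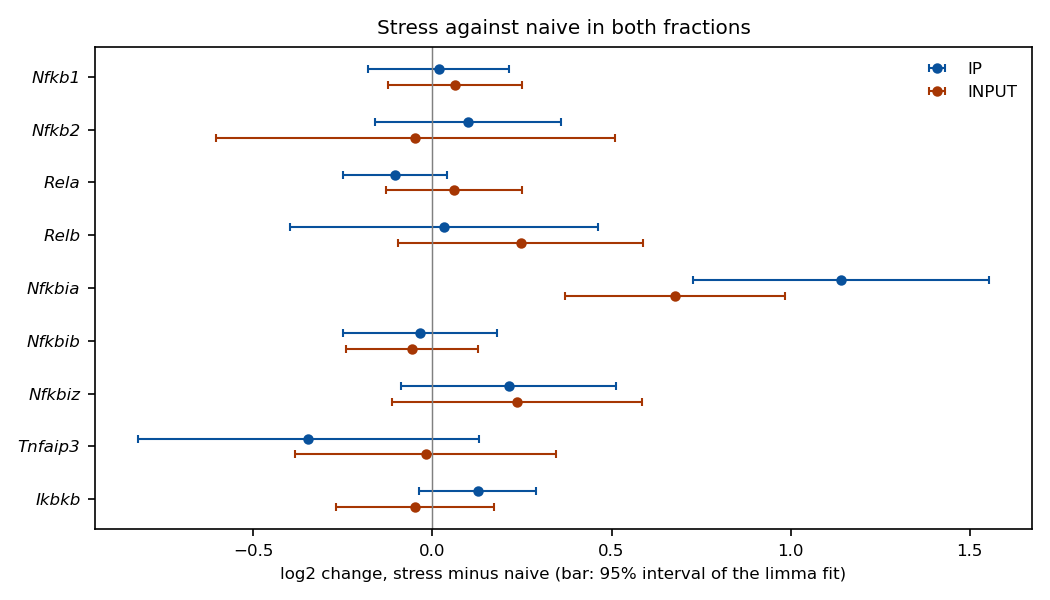
Log2 change from naive to stress for each gene in IP and in INPUT; points are the fitted differences and bars their 95% intervals from limma. Nfkbia is at 1.14 in IP and 0.68 in INPUT with intervals above 0, and the intervals of the other 8 genes include 0 in both fractions.

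Whether the 2 fractions differed in their stress effect was tested in a model of all 16 libraries. The paper took both fractions from each animal, but the labels do not pair them, so the model took the libraries as independent. Its SE is therefore not that of a difference within a mouse. For Nfkbia the increase in IP exceeded that in INPUT by 0.46 ± 0.26 (SE) on the log2 scale, with a 95% interval of -0.09 to 1.02 (limma, unadjusted p = 0.0944, adjusted p = 1.00). No member was called, against 0.0225% of 13341 genes, none had an unadjusted p under 0.05, and limma-voom called 0. The larger increase in IP is therefore not shown to differ from that in INPUT. Without naive IP replicate 11 the difference for Nfkbia was 0.70 (limma, unadjusted p = 0.00207, adjusted p = 0.315), without naive INPUT replicate 14 it was 0.31 (limma, adjusted p = 0.984), and with array weights it was 0.55 (limma, unadjusted p = 0.0231, adjusted p = 0.584). For the other 8 members the differences between fractions were from -0.33 to 0.17 on the log2 scale.

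Nfkbia was then set against the other members within each library, a ratio that is left unchanged by any scaling that uses 1 factor per library. Since Nfkbia was singled out for its change, these ratios are a description with no test. In naive IP the reads of Nfkbia and Rela, its main binding partner, were close to even, with a log2 ratio of -0.13 ± 0.46 (SD, n = 4). In stress IP this ratio was 1.12 ± 0.20 (SD, n = 4). The inhibitor's reads then exceeded those of the subunit in all 4 libraries (lowest log2 ratio 0.83). These ratios are not corrected for exon length, 1.578 kb for Nfkbia and 2.716 kb for Rela. Per kilobase, Nfkbia lay above Rela in naive IP too (lowest library 16.7 against highest 14.7 CPM per kb). In INPUT the log2 ratio of Nfkbia to Rela was -0.19 ± 0.34 (SD, n = 4) in naive and 0.43 ± 0.21 (SD, n = 4) in stressed mice. Against Nfkbib, the other classical inhibitor, the log2 ratio went from 1.56 ± 0.50 to 2.74 ± 0.24 (SD, n = 4) in IP and from -0.28 ± 0.26 to 0.46 ± 0.14 (SD, n = 4) in INPUT. Against Tnfaip3 in IP it went from 3.81 ± 0.63 to 5.32 ± 0.44 (SD, n = 4). Over the 8 partners, the mean log2 ratio was higher in stressed mice by 0.93 to 1.51 in IP and by 0.43 to 0.74 in INPUT. In IP, the stressed libraries were all above the naive ones for 6 of 8 partners, all but Nfkbiz and Relb. In INPUT this held for 2 of 8, Nfkbib and Nfkb1. All 8 ratios share Nfkbia, which by itself separated stressed from naive libraries in both fractions. These counts are therefore not separate observations.

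**Figure D3:**
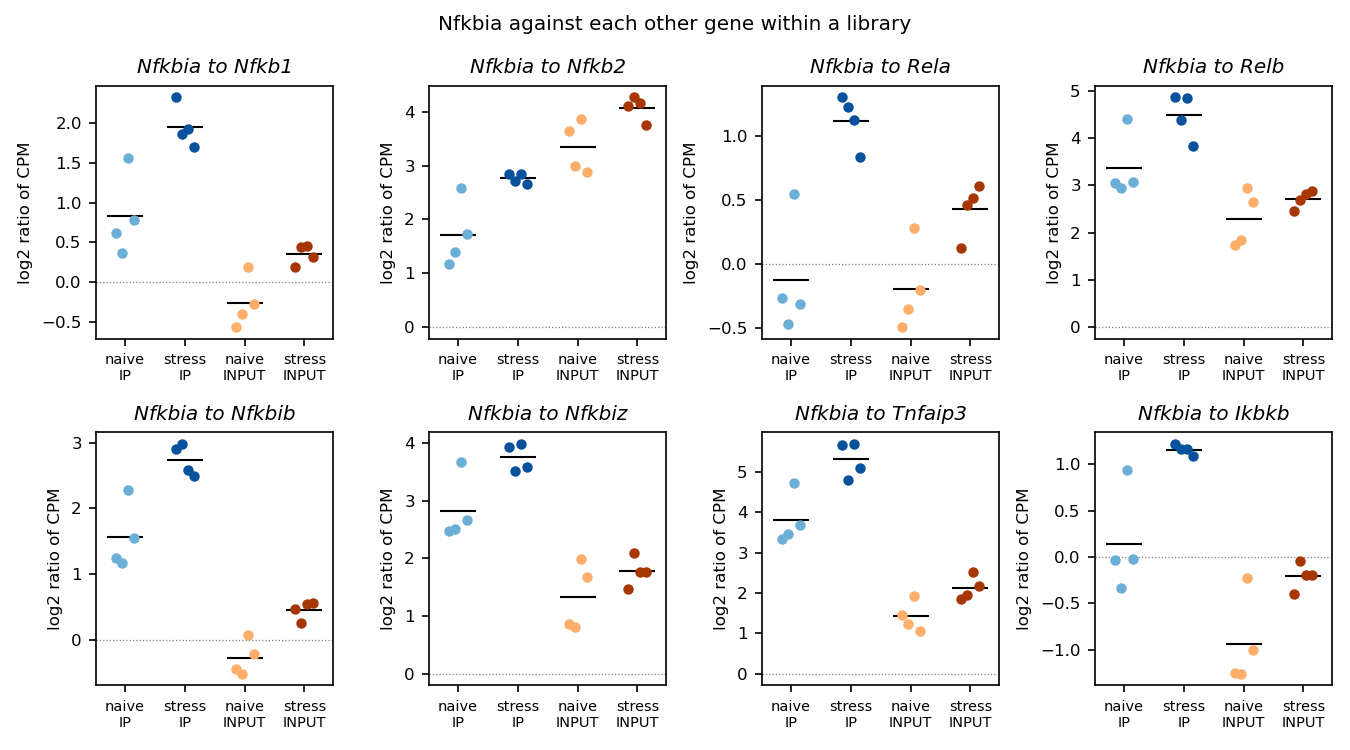
Log2 ratio of the CPM of Nfkbia to that of each of the other 8 genes, computed within a library without correction for exon length. Points are libraries, lines are group means, and 0 (dotted) marks equal CPM. In IP the ratio to Rela moves from a mean of -0.13 in naive to 1.12 in stressed mice.

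The second question was which members are enriched in the astrocyte fraction. In naive mice, on the CPM scale, 3 members were higher in IP, Nfkb2, Nfkbia and Rela, and 3 were lower, Nfkbib, Nfkbiz and Tnfaip3, of which Nfkbiz changed side under other scalings. Nfkb2 stood out, at 13.1, 10.1, 9.32 and 9.68 CPM in naive IP against 1.07, 1.83, 1.60 and 2.44 CPM in naive INPUT. This was 5.97-fold, or 2.58 ± 0.21 (SE) on the log2 scale (limma, adjusted p = 6.01e-08). Nfkbia was 2.03-fold higher in IP, at 1.02 ± 0.22 (SE) on the log2 scale (limma, adjusted p = 0.000557). Rela, with 18.9, 18.5, 19.2 and 20.7 CPM in naive INPUT, was 1.94-fold higher in IP, at 0.96 ± 0.07 (SE) on the log2 scale (limma, adjusted p = 1.94e-08). For these 3 genes every IP library was above every INPUT library. The libraries of the 2 fractions did not overlap, in either direction, for 83.7% of all genes in naive mice.

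Of the 3 members lower in IP on this scale, Tnfaip3 alone was still called lower under 2 other scalings, and Nfkbiz turned higher. Tnfaip3, at 4.91, 6.12, 6.08 and 8.59 CPM in naive INPUT, had a log2 difference of -1.33 ± 0.18 (SE) (limma, adjusted p = 9.23e-06). Nfkbib, at 18.3, 20.7, 22.2 and 21.0 CPM in naive INPUT, had one of -0.81 ± 0.09 (SE, limma, adjusted p = 1.02e-06). Nfkbiz differed by -0.46 ± 0.15 (SE, limma, adjusted p = 0.00911). Nfkb1, Relb and Ikbkb had log2 differences of -0.07, -0.05 and -0.05 and were not called.

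These directions have to be read against all genes. Of 13339 genes, 87.7% were called in naive mice, 23.7% higher and 64.0% lower in IP, and the median log2 difference over all genes was -0.64. With median ratio scaling, which sets the median near 0, the split over all genes went from 3158 higher and 8540 lower to 5715 higher and 5509 lower. The members then split into 6 higher and 1 lower. Nfkb2, Rela and Nfkbia stayed higher, at 3.22, 1.62 and 1.69 on the log2 scale, and Tnfaip3 stayed lower, at -0.68. Nfkb1, Relb and Ikbkb became higher (0.60, 0.59 and 0.62), Nfkbib was no longer called (-0.15), and Nfkbiz turned to 0.20 without a call. With quantile normalization 7 members were higher and 1 was lower, beside 5646 higher and 5483 lower of all 13339 genes.

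**Figure D4:**
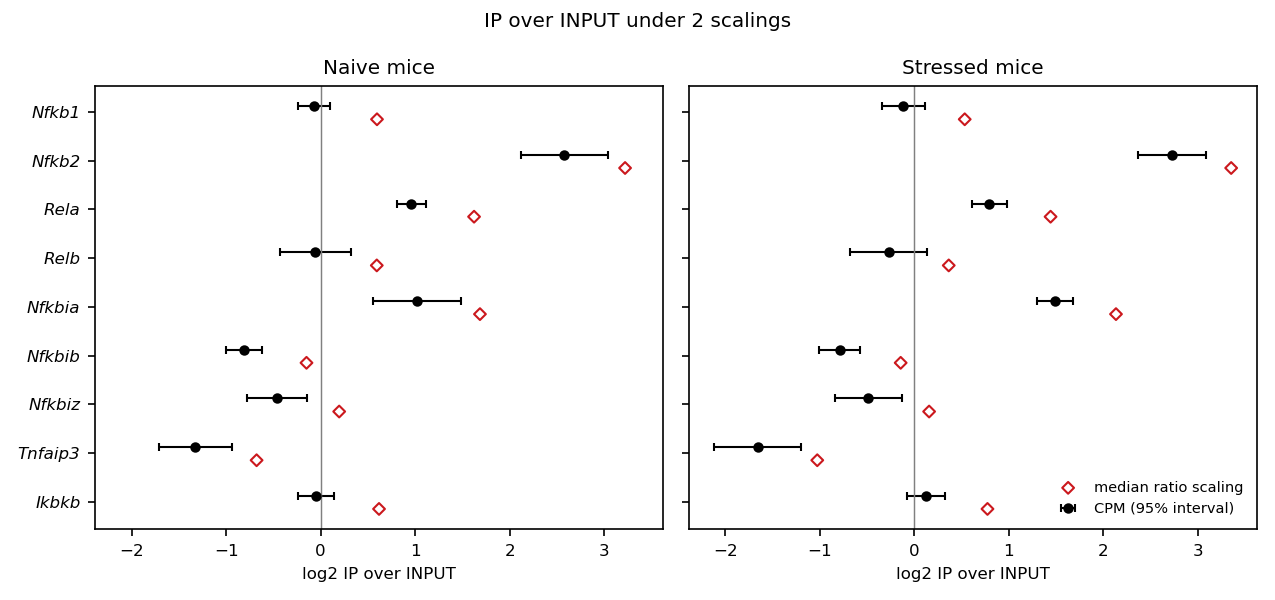
Log2 difference between IP and INPUT for each gene in naive mice (left) and stressed mice (right); black points are the fits on CPM with 95% intervals, and open red diamonds the same fits after median ratio scaling. Nfkb2, Rela and Nfkbia lie above 0 and Tnfaip3 below 0 under both scalings, while Nfkb1, Relb and Nfkbiz change side in both panels and Ikbkb in naive mice only.

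In stressed mice the same 6 members were called in the same directions, beside 86.1% of 13333 genes, 23.6% higher and 62.5% lower in IP. This comparison shares no library with that in naive mice, but each shares its IP libraries with the stress comparison above. Nfkb2 was 6.62-fold higher, at 2.73 ± 0.17 (SE) on the log2 scale (limma, adjusted p = 6.46e-09). Its libraries were at 11.8, 12.0, 10.6 and 10.4 CPM in stress IP and at 1.46, 1.32, 1.60 and 2.15 CPM in stress INPUT. Nfkbia was 2.80-fold higher (log2 1.49 ± 0.09 SE, limma, adjusted p = 4.70e-09) and Rela 1.73-fold higher (log2 0.79 ± 0.09 SE, limma, adjusted p = 1.83e-06). The log2 difference was -1.66 ± 0.21 (SE) for Tnfaip3, -0.79 ± 0.10 (SE) for Nfkbib and -0.48 ± 0.16 (SE) for Nfkbiz. The libraries of Nfkbiz overlapped between IP and INPUT here, and those of the other 5 did not, beside 81.4% of all genes without overlap. With median ratio scaling 5 members were higher and 1 was lower, beside 5540 higher and 5406 lower of all 13333 genes. Nfkb1 was then at 0.53, Relb at 0.37, Ikbkb at 0.77, Nfkbib at -0.14 and Nfkbiz at 0.16 on the log2 scale. The exons of Nfkb2 and Nfkbib overlap those of a gene on the opposite strand, by 77 and 314 bases, and whether the counting used strand is not given in the sources used here.

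The rest of the pathway showed no called stress response. For the counts that follow, 8.27% of all genes in IP and 5.03% in INPUT had an unadjusted p under 0.05. Of the 12 other factors and inhibitors tested in IP, 0 were called by limma, 0 had an unadjusted p under 0.05, and limma-voom called 0. Of the 30 kinases and adaptors, 0 were called, 3 had an unadjusted p under 0.05, and limma-voom called 0. Of the 7 ligands and receptors and the 13 transcriptional targets that passed the filter, 0 were called in either list, 1 in each had an unadjusted p under 0.05, and limma-voom called 0. Their median log2 differences in IP were 0.11, 0.00, -0.01 and -0.08 in that order, beside a median of 0.00 over all genes tested. In INPUT, 0 of 13, 29, 12 and 12 genes of these lists were called by limma, 0, 0, 2 and 1 had an unadjusted p under 0.05, and limma-voom called 0. Only 7 of 23 ligands and receptors and 13 of 32 targets had a mean above 1 CPM in IP, and the others were not tested.

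Several genes upstream and downstream of NF-κB were much higher in IP than in INPUT and were not called for stress. Tlr3, a receptor for double-stranded RNA, was at 166 ± 3.90 CPM (SD, n = 4) in naive IP and 12.8 ± 2.29 CPM (SD, n = 4) in naive INPUT, a log2 difference of 3.71 ± 0.11 (SE). Irak2, a kinase of the interleukin-1 and Toll-like receptor route, was at 150 ± 8.59 CPM (SD, n = 4) in naive IP and 20.5 ± 2.02 CPM (SD, n = 4) in naive INPUT. In stress IP, Irak2 was at 194 ± 19.5 CPM (SD, n = 4). Its libraries, between 165 and 205 CPM, all lay above the naive ones, between 139 and 158 CPM, as for 2.38% of all genes. This log2 difference of 0.37 ± 0.08 (SE) had an unadjusted p of 0.00045 and an adjusted p of 0.0760 (limma). In INPUT the difference was 0.08 ± 0.10 (SE). Of the 30 kinases and adaptors tested in IP, 15 had a log2 difference above 0. Tradd, of the same list, was at 1.62 ± 0.406 CPM in naive IP and at 0.971 ± 0.309 CPM in stress IP (SD, n = 4). Ripk1, a kinase at the tumour necrosis factor receptor, had a log2 difference of 2.10 ± 0.10 (SE), and Ticam1, the adaptor of Tlr3, one of 1.98 ± 0.10 (SE). Among the targets, the adhesion molecule gene Vcam1 was at 263 ± 16.7 CPM (SD, n = 4) in naive IP and 24.7 ± 2.45 CPM (SD, n = 4) in naive INPUT.

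Other pathway genes were lower in the astrocyte fraction. Ptgs2, which encodes cyclooxygenase-2, had a log2 difference between naive IP and INPUT of -3.27 ± 0.20 (SE), and the early response gene Ier3 one of -1.95 ± 0.19 (SE). Tnfrsf11a, the receptor RANK, was at -3.62 ± 0.25 (SE) and Tlr7, a receptor for single-stranded RNA, at -2.54 ± 0.23 (SE). Among the other factors and inhibitors, the deubiquitinase gene Cyld was at -1.67 ± 0.06 (SE) and the repressor gene Nkrf at -2.01 ± 0.07 (SE). Nfkbid, a nuclear member of the inhibitor family, was at -2.18 ± 0.33 (SE). The naive IP means of Nfkbid, Tlr7 and Tnfrsf11a were only 0.363, 0.639 and 0.822 CPM, which limits the precision of their differences. In stressed mice, the adaptor gene Tradd was at -2.07 ± 0.22 (SE). All genes named here from beyond the 9 members kept the direction of these differences with median ratio scaling and quantile normalization. Over all 13339 genes in naive mice, 23.7% were called higher and 64.0% lower in IP. With median ratio scaling, 5715 of them were called higher and 5509 lower. In naive mice, 0 of 13 other factors and inhibitors were called higher and 9 lower in IP, against 5 and 5 with median ratio scaling. Of 30 kinases and adaptors, 11 were called higher and 13 lower, against 19 and 7 with median ratio scaling. Of 11 ligands and receptors, 5 were higher and 5 lower (6 and 4 with median ratio scaling), and of 13 targets, 5 were higher and 7 lower (7 and 5).

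Nfkbia is also known as a glucocorticoid-induced gene, and 15 other such genes were set beside it. The list was chosen with earlier results of these data known. Whether glucocorticoids caused any of the changes was not tested. In IP, 2 of the 15 were called higher, and 10 had an unadjusted p under 0.05 (limma, 8.27% over all genes). The median log2 difference was 0.38, beside 0.00 over all genes. The difference was above 0 for 13 of the 15, while Dusp1 and Sult1a1 were at -0.03 and -0.10. Arrdc2, an arrestin-domain gene, rose from 12.7 ± 5.33 to 33.8 ± 8.11 CPM (SD, n = 4), by 1.45 ± 0.24 (SE) on the log2 scale (limma, adjusted p = 0.0248). Tsc22d3, which encodes the glucocorticoid-induced leucine zipper, rose from 285 ± 111 to 601 ± 85.5 CPM (SD, n = 4), by 1.14 ± 0.21 (SE) on the log2 scale (limma, adjusted p = 0.0387). With median ratio scaling 1 of the 15 was called. In INPUT, 0 of the 15 were called by limma and by limma-voom, 10 had an unadjusted p under 0.05 (5.03% over all genes), and the median log2 difference was 0.34.

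The genes whose pattern over the 16 libraries was most like that of Nfkbia were Cebpa, Plekhf1, Slc35e4, Rrp8 and Trp53inp1. Likeness was the root mean square difference of log2 levels centred on each gene's mean, which was 0.221 for Cebpa and 0.260 for Trp53inp1, the first and the fifth of 13340 genes. Cebpa, a transcription factor gene, was at 19.6 ± 8.56 and 37.4 ± 4.44 CPM (SD, n = 4) in naive and stress IP and at 8.17 ± 1.40 and 11.2 ± 1.45 CPM (SD, n = 4) in naive and stress INPUT. Slc35e4 and Trp53inp1 were at 40.1 and 32.3 CPM in naive IP and at 74.6 and 63.0 CPM in stress IP. Of the other 8 members, Rela was closest to Nfkbia on this measure at 0.594 (place 725) and Tnfaip3 farthest at 1.54 (place 9940).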

How the data were processed

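The authors depleted ribosomal RNA, sequenced IP and INPUT libraries, mapped reads with STAR to mm10, counted uniquely mapped fragments per gene with HTSeq, and deposited log2 CPM values (16 tables, 24060 genes). Per the file headers and values, the deposited log2 CPM contain a small prior count, so whole reads were recovered (within 0.1 read for 100% of values in every library) and CPM was taken from them. The main test was limma 3.58.1 (R 4.3.3, empirical Bayes with trend) on log2(CPM + 0.1) over genes averaging more than 1 CPM across the fitted libraries, with Benjamini-Hochberg adjustment over all of them and a threshold of 0.05. A change on this scale understates that of low genes. The 9 members also had an exact two-sided permutation test in the 4 comparisons of 4 libraries against 4. Samples were grouped by the labels, which name no separate culture or litter. Gene lengths were exons of RefSeq-matched GENCODE transcripts. Every member, and other listed genes called in a stress comparison or among the 3 largest of their list by IP over INPUT, were named. The members and lists were chosen with earlier results of these data known. Scripts were tested on simulated data. Alternatives were other pseudocounts, filters, scalings and variance models, limma-voom, and leaving out each library.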

Additional observations from a re-analysis of the deposited data

Results flagged for a closer look

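In the 36 groups of 4 libraries (9 genes, 4 groups), 1 value stood apart by Dixon's criterion at the 95% level, and chance would flag about 1.8. Ikbkb in stress INPUT replicate 9 was at 26.1 CPM, while the other 3 libraries were between 33.0 and 33.2 CPM, a gap of 0.964 of the whole range. Without this library the log2 difference of Ikbkb between stress and naive INPUT was 0.04 instead of -0.05, and neither value was called by limma.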

How the results depend on the processing

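Over 50 results and 1010 alternative values, 937 kept their direction and side of the threshold and 46 changed direction. Some of these results were counts of called members, for which a count close to the main one was taken as kept. The Nfkbia increase in IP kept its direction throughout. It lost the call with no filter on low values (1.14, adjusted p = 0.422, limma) and with a variance without trend (1.14, adjusted p = 0.135), each of which left 0 members called. Over the other 9 settings adjusted p was between 0.00113 and 0.0423 (limma). Leaving out 1 library in turn gave increases from 1.02 to 1.38 and between 0 and 1 called members in IP. In INPUT the Nfkbia difference was called with array weights (0.73, adjusted p = 0.0234, limma), giving 1 member. That setting called 50 of 13577 genes, against 6 in the main fit. Leaving out 1 library gave from 0.57 to 0.83 and between 0 and 1 members, with 1 to 32 of all genes called. The cause was not tested. For IP over INPUT in naive mice, directions reversed for Ikbkb (0.62 with median ratio scaling, 0.53 with quantile normalization), Nfkb1 (0.60, 0.55), Nfkbiz (0.20, 0.38) and Relb (0.59, 0.92). In stressed mice they reversed for Nfkb1 (0.53, 0.51), Nfkbiz (0.16, 0.32) and Relb (0.37, 0.69). These scalings move the median of all genes by construction. With array weights Relb changed sign without a call, to -0.12 for stress in IP and 0.04 for IP over INPUT in naive mice. Leaving out 1 library moved uncalled values across 0. In IP, stress against naive ranged from -0.03 to 0.09 for Nfkb1, from -0.09 to 0.03 for Nfkbib and from -0.11 to 0.15 for Relb. In INPUT it ranged from -0.13 to 0.04 for Ikbkb, from -0.24 to 0.13 for Nfkb2, from -0.01 to 0.10 for Rela and from -0.14 to 0.13 for Tnfaip3. IP over INPUT in naive mice ranged from -0.13 to 0.00 for Ikbkb and from -0.14 to 0.05 for Relb. In stressed mice, Relb ranged from -0.41 to -0.15. Without stress IP replicate 15 it was also called lower in IP (adjusted p = 0.0475, limma). That fit called 7 members, beside 11409 of 13399 genes. The difference between fractions ranged from 0.31 to 0.70 for Nfkbia, from -0.10 to 0.03 for Nfkb1, from -0.03 to 0.35 for Nfkb2, from -0.03 to 0.09 for Nfkbib and from -0.16 to 0.06 for Nfkbiz. Of all genes, 55 were called in IP, 122 without naive replicate 11, 101 without stress replicate 15, 17 to 24 without any 1 of the other libraries, and 19 with a variance without trend. A covariate for Xist, chosen after seeing the data, changed no call on a member. No paired analysis was possible because the libraries of different groups share no replicate number. Every comparison of IP with INPUT therefore took the libraries as independent. With 4 libraries a group, 19 to 48 reads of Nfkb2 per INPUT library limit its precision.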
